A study of Mus musculus with 21 samples.

Results

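Zinc handling in the liver was followed through 7 genes: the metallothioneins Mt1 and Mt2, the metal sensor Mtf1, the exporters Slc30a1 and Slc30a10, and the importers Slc39a14 and Slc39a4. Their probes were found by name, through the RefSeq accession that the scanner files give for each probe. These 7 are among 16535 genes with a symbol, and they hold 11 of the array's 41174 probes. All 7 passed the filter on dim probes and were tested among 17640 features.

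Female C57BL/6 mice received nanosized titanium dioxide (TiO2) into the windpipe in 1 instillation of 162 µg, and control mice received the vehicle, which was saline holding 10% cell-free lung lavage fluid. Livers were taken after 1 or 28 days, giving 6 mice in the TiO2 day 1 group, 5 in the control day 1 group, 6 in the TiO2 day 28 group and 4 in the control day 28 group. The mice were 5 to 7 weeks old when bought and acclimatised for 1 to 3 weeks, and all were instilled with 40 µl of liquid. Each animal had its own array, with liver RNA in the red dye (Cy5) and a common reference RNA of 11 mouse cell lines in the green dye (Cy3). Every level below is the log2 ratio of liver over that reference for 1 probe, so a level of 0 means equal signal. Ratios of different probes have no common scale, so levels are not compared between probes. Means over several probes serve only to compare arrays and groups, and a probe with a wider span weighs more in them.

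Zinc that enters a cell is bound by metallothioneins, small proteins rich in cysteine that hold zinc, copper and cadmium. When free zinc rises, Mtf1 binds metal response elements in DNA and turns on the metallothionein genes and the exporter Slc30a1. In liver, metallothioneins are also induced by glucocorticoids and by the acute phase response, in which interleukin 6 raises the importer Slc39a14 as well.

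The stretches before the annotated starts of Mt1, Mt2 and Slc30a1 are shown because these genes are the known targets of Mtf1 among the 7. Each sequence is the 250 bases before the gene's start in RefSeq's annotation of GRCm38.p6, on the gene's own strand, 5′ to 3′. That build is newer than mm8, which the array headers name. RefSeq windows were matched for 5 of the 7 genes. Capitals mark the core of the metal response element, TGCACNC or TGCGCNC, read on both strands, so that a match on the other strand shows as its reverse complement.
Mt1, plus strand, chr8:94178839-94179088: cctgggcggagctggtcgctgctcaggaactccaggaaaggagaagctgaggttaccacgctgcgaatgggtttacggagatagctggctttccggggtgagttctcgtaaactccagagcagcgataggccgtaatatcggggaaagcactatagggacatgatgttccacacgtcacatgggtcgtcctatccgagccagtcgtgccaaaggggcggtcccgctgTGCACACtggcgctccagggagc
Mt2, plus strand, chr8:94172368-94172617: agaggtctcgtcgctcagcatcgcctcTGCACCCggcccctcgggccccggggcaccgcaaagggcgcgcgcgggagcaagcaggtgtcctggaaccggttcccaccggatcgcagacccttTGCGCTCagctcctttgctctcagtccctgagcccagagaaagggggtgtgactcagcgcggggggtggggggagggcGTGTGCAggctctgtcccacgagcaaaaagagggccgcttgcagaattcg
Slc30a1, plus strand, chr1:191906531-191906780: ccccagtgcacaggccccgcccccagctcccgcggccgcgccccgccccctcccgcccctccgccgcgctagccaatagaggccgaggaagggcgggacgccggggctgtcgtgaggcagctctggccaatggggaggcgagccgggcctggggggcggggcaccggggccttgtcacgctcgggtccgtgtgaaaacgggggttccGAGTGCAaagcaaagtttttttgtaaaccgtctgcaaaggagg

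The core occurred in 1 place in the Mt1 window, 23 to 17 bases before the start. The Mt2 window had it in 3 places, the nearest of them on the minus strand, 50 to 44 bases before the start. In the Slc30a1 window it occurred in 1 place, on the minus strand, 43 to 37 bases before the start. Slc30a10 had 3 matches, 2 of which overlap on opposite strands, and Mtf1 had 0. Among all 32851 RefSeq windows of the same length, 21.4% held at least 1 core and 1.26% held at least 3. When the next 50 bases after the start were added, Mt1 had 3 cores, Mt2 had 4 and Slc30a1 had 2, and 1.97% of all windows held at least 3. For Mt1, 2 of the cores lay after the annotated start, at bases 3 to 9 and 21 to 27. Its count in the printed window therefore depends on where that start is placed. A match of letters is a description and not a measured binding site.

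The arrays were checked before the genes were compared. By the test in the scanner software, all 9 hepatocyte markers on the array were well above background on 21 of 21 arrays. The extraction protocol names lung, and of 5 lung markers Scgb1a1, a club cell gene, was above background on 17 of 21 arrays, the surfactant genes Sftpa1 on 4, Sftpb on 2 and Sftpc on 2, and Ager on 0. Probes above background numbered 12985 to 26616 per array, and the arrays with most were all from the second of 3 scan days, where the range was 20879 to 26616. Every scan day held 2 arrays of every group, except for 1 array of either control group on the first and 1 of the control day 28 group on the third. Over 10 lists of cell type markers, with 39 genes tested, 0 passed an adjusted p of 0.05 by limma and 0 an unadjusted p of 0.05 in either TiO2 against control comparison. Of all 17640 features, 0% passed the adjusted threshold at either time. Unadjusted, 1.73% of them passed at day 1 and 0.913% at day 28, so 0 among 39 is near the share of all features. In whole liver, fewer cells of a type and less RNA per cell cannot be told apart.

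The metallothioneins had the widest spans of the 7 genes. Mt1 spanned 2.36 log2 units over the 21 arrays, or 5.13-fold, and Mt2 spanned 3.78, or 13.7-fold, while the representative probes of the other 5 genes spanned 0.81 to 1.76. Both were well above background on all 21 arrays, with 0 saturated spots in either channel.

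Mt1 was read by 1 probe printed in 10 spots on each array. Its log2 ratios in TiO2 mice at day 1 were -0.08, 0.70, 0.20, 0.50, -0.53 and 0.88, against 0.58, 0.64, -1.38, -0.12 and -0.69 in control mice at day 1. At day 28 they were -1.48, -0.45, -0.49, -0.66, -1.14 and -1.0 in TiO2 mice, against -0.07, -0.48, -1.40 and 0.42 in control mice. The TiO2 mice lay inside the spread of the controls except for replicates 2 and 6 at day 1 and replicate 1 at day 28. The TiO2 day 28 arrays were all below 0, whereas each control group had arrays on both sides of it.

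Mt2, the second metallothionein of liver, was read by a probe with 1 spot per array. Its log2 ratios were -1.64, 1.13, -1.04, 1.21, -0.02 and 0.83 in TiO2 mice at day 1, against -1.25, 1.28, -2.36, 0.34 and -0.61 in control mice at day 1. At day 28 they were -1.78, -0.62, -2.50, -0.94, -0.68 and -1.51 in TiO2 mice, against -0.73, -0.35, -1.64 and 0.68 in control mice. Replicate 3 of the day 1 controls was the lowest control for Mt2, and the groups overlapped at each time.

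**Figure D1:**
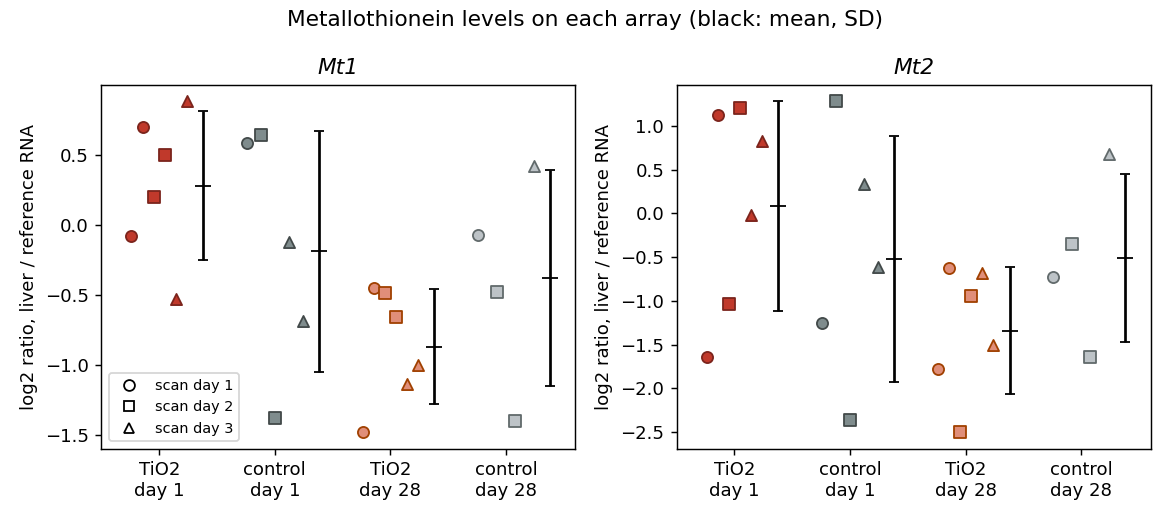
Log2 ratio of liver over reference RNA for Mt1 (left) and Mt2 (right) on each of the 21 arrays, by group, with the symbol giving the scan day and the black bar the group mean and SD. The 6 TiO2 day 28 arrays lie between -1.48 and -0.45 for Mt1, and the control day 1 arrays run from -1.38 to 0.64.

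The first comparison asks whether particles in the lung had changed liver metallothionein a day later. Mt1 averaged 0.28 ± 0.53 in TiO2 mice and -0.19 ± 0.86 in control mice (SD, n = 6 and 5), a difference of 0.47 ± 0.35 (SE) with an adjusted p of 0.9999 by limma. It was above the control mean in 5 of 6 TiO2 mice. Mt2 averaged 0.08 ± 1.20 in TiO2 mice and -0.52 ± 1.41 in control mice, a difference of 0.60 ± 0.60 that was shared by 4 of 6 TiO2 mice. Neither difference passed the test, and each was smaller than the SD among the controls. Of all 17640 features, 0% passed the adjusted threshold and 1.73% had an unadjusted p under 0.05, while 0 of the 7 zinc genes passed either. With scan day as a block, Slc39a4 had an unadjusted limma p of 0.02724 (adjusted p of 0.9925), and with array weights Mt1 had one of 0.02996 (adjusted p of 0.9998). The TiO2 and control values overlapped for all 7 genes, and over all features with a value on every array 0.109% did not overlap.

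The day 1 differences rested on individual control mice. Without control day 1 replicate 3 the Mt1 difference was 0.18 and the Mt2 difference 0.14, and without control day 1 replicate 2 they were 0.68 and 1.05. Within scan days 1, 2 and 3, each with 1 or 2 arrays per group, the Mt1 difference was -0.27, 0.72 and 0.58, and the Mt2 difference 0.99, 0.62 and 0.54.

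By day 28 both metallothioneins had lower means in TiO2 mice than in control mice. Mt1 averaged -0.87 ± 0.41 in TiO2 mice and -0.38 ± 0.77 in control mice (SD, n = 6 and 4), a difference of -0.49 ± 0.38 (SE) with an adjusted p of 0.9998 by limma. Mt2 averaged -1.34 ± 0.73 in TiO2 mice and -0.51 ± 0.96 in control mice, a difference of -0.83 ± 0.64 with the same adjusted p. For each gene 0 of 6 TiO2 mice exceeded the mean of the controls, but control day 28 replicate 3, at -1.40 and -1.64, was as low as the lower TiO2 mice. Neither difference passed the test. Across all features 0% passed the adjusted threshold, 0.913% had an unadjusted p under 0.05 and 0.292% did not overlap between groups, and 0 of the 7 zinc genes did any of these.

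Here too single controls moved the size. Without control day 28 replicate 4, the highest of its group, the Mt1 difference was -0.22 and the Mt2 difference -0.43, and without replicate 3 they were -0.83 and -1.20. Within scan days 1, 2 and 3 the Mt1 difference was -0.89, 0.36 and -1.49, and the Mt2 difference was -0.47, -0.72 and -1.77, so the sign of the Mt1 difference turned on scan day 2.

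The mean difference between TiO2 and control mice was positive at day 1 and negative at day 28 for both metallothioneins, and this change was tested directly. The day 28 effect minus the day 1 effect was -0.96 ± 0.52 for Mt1 (SE, adjusted p of 1 by limma) and -1.42 ± 0.88 for Mt2. Over all features 0% passed the adjusted threshold and 0.743% had an unadjusted p under 0.05, and 0 of the 7 zinc genes passed either. The Mt1 value was -1.51 without scan day 2 and -0.50 without scan day 3. Over alternatives that kept all arrays or left out a scan day, its smallest unadjusted limma p was 0.01747. The smallest adjusted p of these was 0.9992. With both control day 1 replicate 3 and control day 28 replicate 4 left out, an alternative chosen after seeing the data, the change was -0.40 for Mt1 and -0.56 for Mt2.

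Time was compared within each treatment. Among TiO2 mice, day 28 minus day 1 gave -1.15 ± 0.34 for Mt1, a level 0.451 times as high, and -1.42 ± 0.57 for Mt2, a level 0.375 times as high (SE, n = 6 each). For each gene, 0 of 6 day 28 mice lay above the day 1 mean. Mt1 ranked 76th of 17640 features by p, with an adjusted p of 0.6063 by limma, and Mt2 ranked 317th, with an adjusted p of 0.9999, so neither passed. Before adjustment, both were among the 3.74% of features with a limma p under 0.05, and the other 5 zinc genes were not. Across all features 0.034% passed the adjusted threshold and 0.361% did not overlap between the groups, and 0 of the 7 zinc genes did either.

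The difference between these TiO2 groups was negative on each scan day, at -1.28, -0.93 and -1.24 for Mt1 and -0.95, -1.80 and -1.50 for Mt2 on scan days 1, 2 and 3, with 2 arrays per group on each. Among control mice, day 28 minus day 1 gave -0.19 ± 0.39 for Mt1 and 0.01 ± 0.67 for Mt2, with adjusted p-values of 0.9996 by limma. In that comparison 0% of all features passed the adjusted threshold, 3.01% had an unadjusted p under 0.05 and 0.676% did not overlap, and 0 of the 7 zinc genes did any of these. The control values also depended on the mice included: without control day 1 replicate 3 and control day 28 replicate 4 they were -0.75 for Mt1 and -0.85 for Mt2. These comparisons share groups with those of TiO2 against control, so they are not independent of them.

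**Figure D2:**
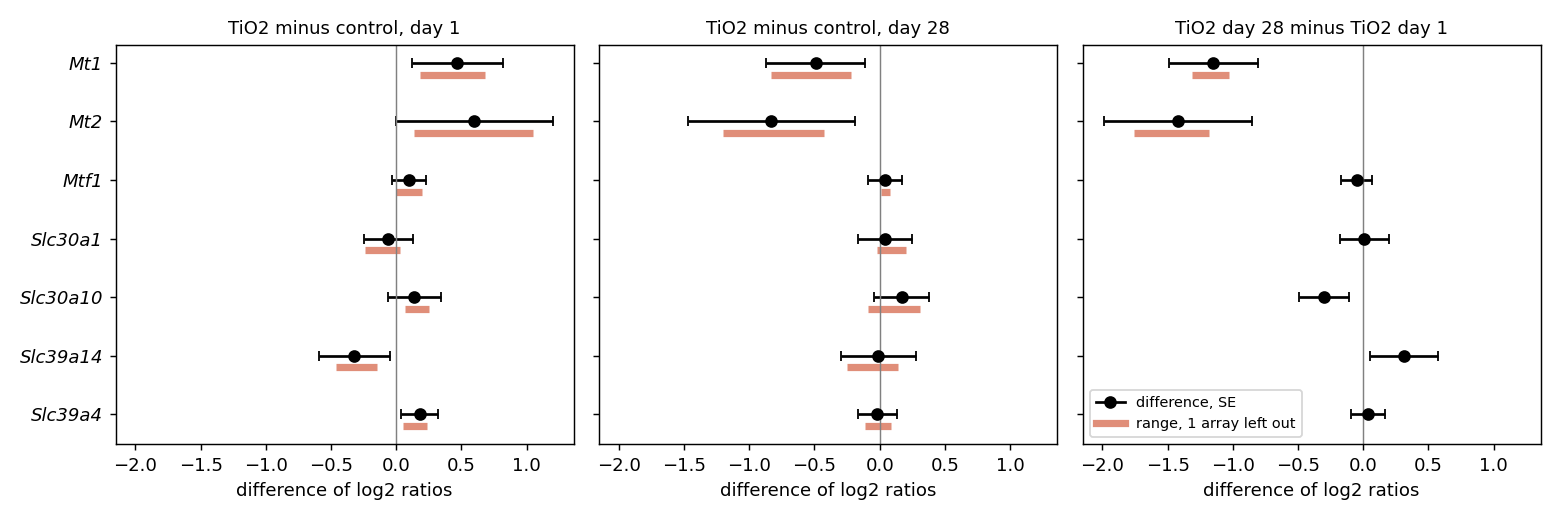
Differences of log2 ratios for the 7 genes, with TiO2 minus control at day 1 (left), TiO2 minus control at day 28 (middle) and TiO2 day 28 minus TiO2 day 1 (right); points are limma estimates with SE, and the bars beneath give the range with 1 array left out at a time (for the right panel, drawn for Mt1 and Mt2). Mt1 stands at 0.47, -0.49 and -1.15, and Mt2 at 0.60, -0.83 and -1.42.

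Mt1 and Mt2 moved together from array to array. Over the 21 arrays their log2 ratios had a Pearson r of 0.71 and a Spearman rho of 0.65, with permutation p-values of 0.00051 and 0.00175 from 100000 resamples, two-sided, as the 1 relation tested this way. The r was 0.60, 0.80 and 0.90 within scan days 1, 2 and 3, and 0.75 after each scan day's mean was taken out. It was 0.63 without TiO2 day 1 replicates 6 and 2, the arrays farthest from the median of Mt1. Both values of a pair come from the same array, with its labelling and scan. The resampling shuffled arrays across groups and scan days. Group accounted for 36.8% of the variance of Mt1 and 22.8% of that of Mt2, so the p-values also take in differences between group means. Some share falls to group even where groups do not differ. Within the TiO2 day 1 and control day 1 groups r was 0.61 and 0.67 (n = 6 and 5).

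The extremes of this shared level came from more than one group. By the mean of both genes, the highest arrays were control day 1 replicate 2 at 0.96, TiO2 day 1 replicate 2 at 0.92 and TiO2 day 1 replicates 4 and 6 at 0.86. The lowest were control day 1 replicate 3 at -1.87, TiO2 day 28 replicate 1 at -1.63, control day 28 replicate 3 at -1.52 and TiO2 day 28 replicate 3 at -1.49. The highest and the lowest animal of the study were thus both vehicle controls of day 1, and they were scanned on the same day. All 6 TiO2 day 28 arrays were among the 10 lowest of 21.

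**Figure D3:**
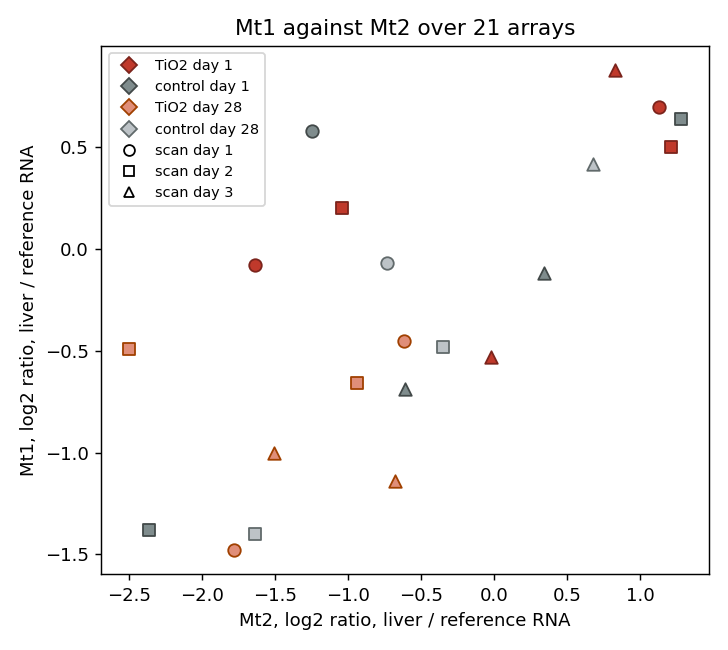
Log2 ratio of Mt1 (vertical axis) against Mt2 (horizontal axis) on the 21 arrays, coloured by group and with the symbol giving the scan day (Pearson r of 0.71). Control day 1 replicate 1 sits at 0.58 for Mt1 and -1.25 for Mt2, off the main direction of the points, and TiO2 day 28 replicate 3 at -0.49 and -2.50.

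On some arrays the metallothioneins did not go together, and the replicate spots of Mt1 show how well each array read it. Control day 1 replicate 1 had the second highest Mt1 of its group, 0.58, but the second lowest Mt2, -1.25. The Mt1 spots of that array ran from -0.78 to 1.67, with an SD of 0.79, and the median SD of the other probes with 10 spots on it was 0.57. TiO2 day 28 replicate 3 had the second highest Mt1 of its group, -0.49, and the lowest Mt2, -2.50, while its Mt1 spots had an SD of 0.03. In the TiO2 day 1 group, replicate 1 stood at -0.08 for Mt1 and -1.64 for Mt2, and replicate 3 at 0.20 and -1.04. Their Mt1 spots had SDs of 0.54 and 0.03. On scan day 1 the spot SD was 0.18 to 0.79, compared with 0.02 to 0.05 on the second day and 0.07 to 0.19 on the third. The Mt1 values of scan day 1 were thus the least precise, and the extreme controls of scan day 2, at 0.64 and -1.38, were among the most precise.

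**Figure D4:**
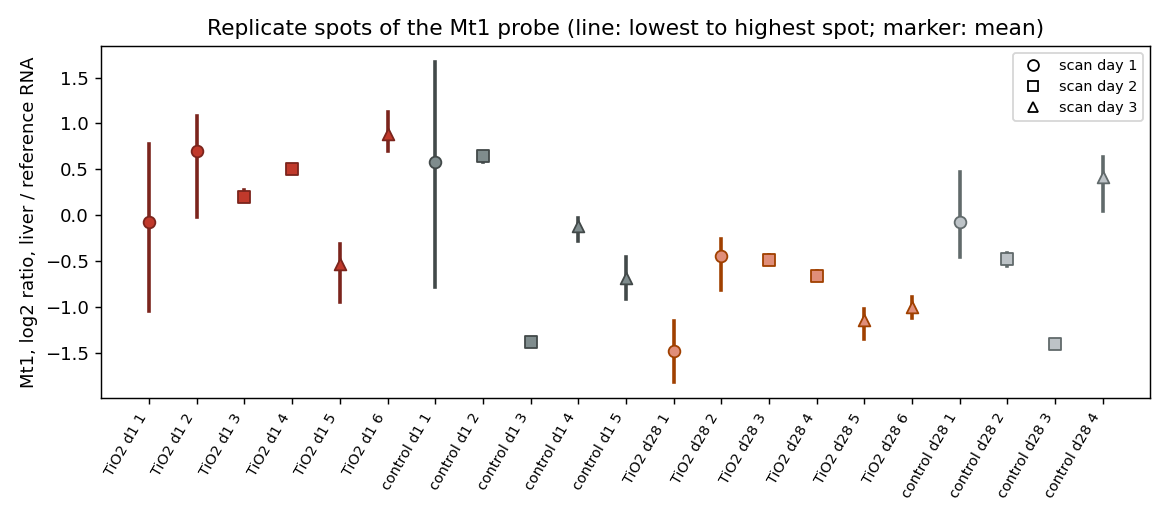
Replicate spots of the Mt1 probe on each of the 21 arrays, as log2 ratios of liver over reference RNA; the line runs from the lowest to the highest spot and the marker gives the mean, with its shape naming the scan day. The spots of control day 1 replicate 1 run from -0.78 to 1.67, and those of control day 1 replicate 3 from -1.42 to -1.35.

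Mtf1, the transcription factor that senses zinc, differed little between groups. At day 1 its log2 ratio was 0.00 to 0.49 in TiO2 mice (median 0.32) and -0.21 to 0.60 in control mice (median 0.30), with a difference of 0.10 ± 0.13 (SE). At day 28 it was 0.08 to 0.38 in TiO2 mice (median 0.23) and 0.12 to 0.30 in control mice (median 0.18), with a difference of 0.04 ± 0.13. Neither passed limma's test, with adjusted p-values of 0.9999 and 0.9998. A second Mtf1 probe was well above background on 0 of 21 arrays.

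Slc30a1 moves zinc out of the cell, across the plasma membrane. Its log2 ratio at day 1 was 1.35 to 2.02 in TiO2 mice (median 1.58) and 0.96 to 2.04 in control mice (median 1.77), a difference of -0.06 ± 0.19 (SE). At day 28 it was 0.85 to 1.91 in TiO2 mice (median 1.77) and 1.39 to 1.78 in control mice (median 1.57), a difference of 0.04 ± 0.21. The groups overlapped at both times and neither difference passed. Without control day 1 replicate 1, its lowest control, the day 1 difference was -0.24. A second probe gave -0.10 at day 1 and 0.04 at day 28, and its correlation with the first over the arrays was 0.33.

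Slc30a10, best known as an exporter of manganese, had log2 ratios at day 1 of 1.51 to 2.41 in TiO2 mice (median 2.16) and 1.80 to 2.15 in control mice (median 1.88). At day 28 they were 1.23 to 2.03 in TiO2 mice (median 1.82) and 0.81 to 2.02 in control mice (median 1.77). The differences were 0.14 ± 0.20 and 0.17 ± 0.21 (SE), and neither passed. Day 28 minus day 1 was -0.30 ± 0.19 in TiO2 mice, with 0 of 6 above the day 1 mean, and -0.33 ± 0.22 in control mice, and neither passed. A second probe gave a TiO2 against control difference of -0.07 at day 1 and 0.24 at day 28. For day 28 minus day 1 it gave 0.14 in TiO2 mice and -0.16 in control mice, so the sign at day 1 and the sign of the time difference in TiO2 mice depended on the probe.

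Slc39a14 brings zinc, manganese and iron into hepatocytes. At day 1 its log2 ratio was 0.21 to 1.61 in TiO2 mice (median 0.94) and 0.76 to 1.97 in control mice (median 1.27), a difference of -0.32 ± 0.27 (SE). At day 28 it was 0.64 to 1.64 in TiO2 mice (median 1.38) and 0.55 to 1.74 in control mice (median 1.42), a difference of -0.01 ± 0.29. Neither passed, and a second probe gave 0.11 at day 1 and -0.06 at day 28. Scan day accounted for 72.7% of the variance of this gene, with means of 0.66, 1.63 and 1.15 on scan days 1, 2 and 3, and group for 9.73%. Within those days the day 1 difference was -0.40, -0.09 and -0.22.

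Slc39a4, known as the main zinc importer of the gut, was clearly read in these livers, with log2 ratios of 2.34 to 3.48 over the 21 arrays. At day 1 they were 2.89 to 3.25 in TiO2 mice (median 3.08) and 2.34 to 3.11 in control mice (median 2.99). All 6 TiO2 mice exceeded the mean of the controls, by a difference of 0.18 ± 0.14 (SE) that did not pass limma's test (adjusted p of 0.9999). That mean was pulled down by control day 1 replicate 1 at 2.34, and without this array the difference was 0.05. At day 28 the log2 ratios were 2.88 to 3.48 in TiO2 mice (median 3.08) and 2.84 to 3.43 in control mice (median 3.12), with a difference of -0.02 ± 0.15.

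**Figure D5:**
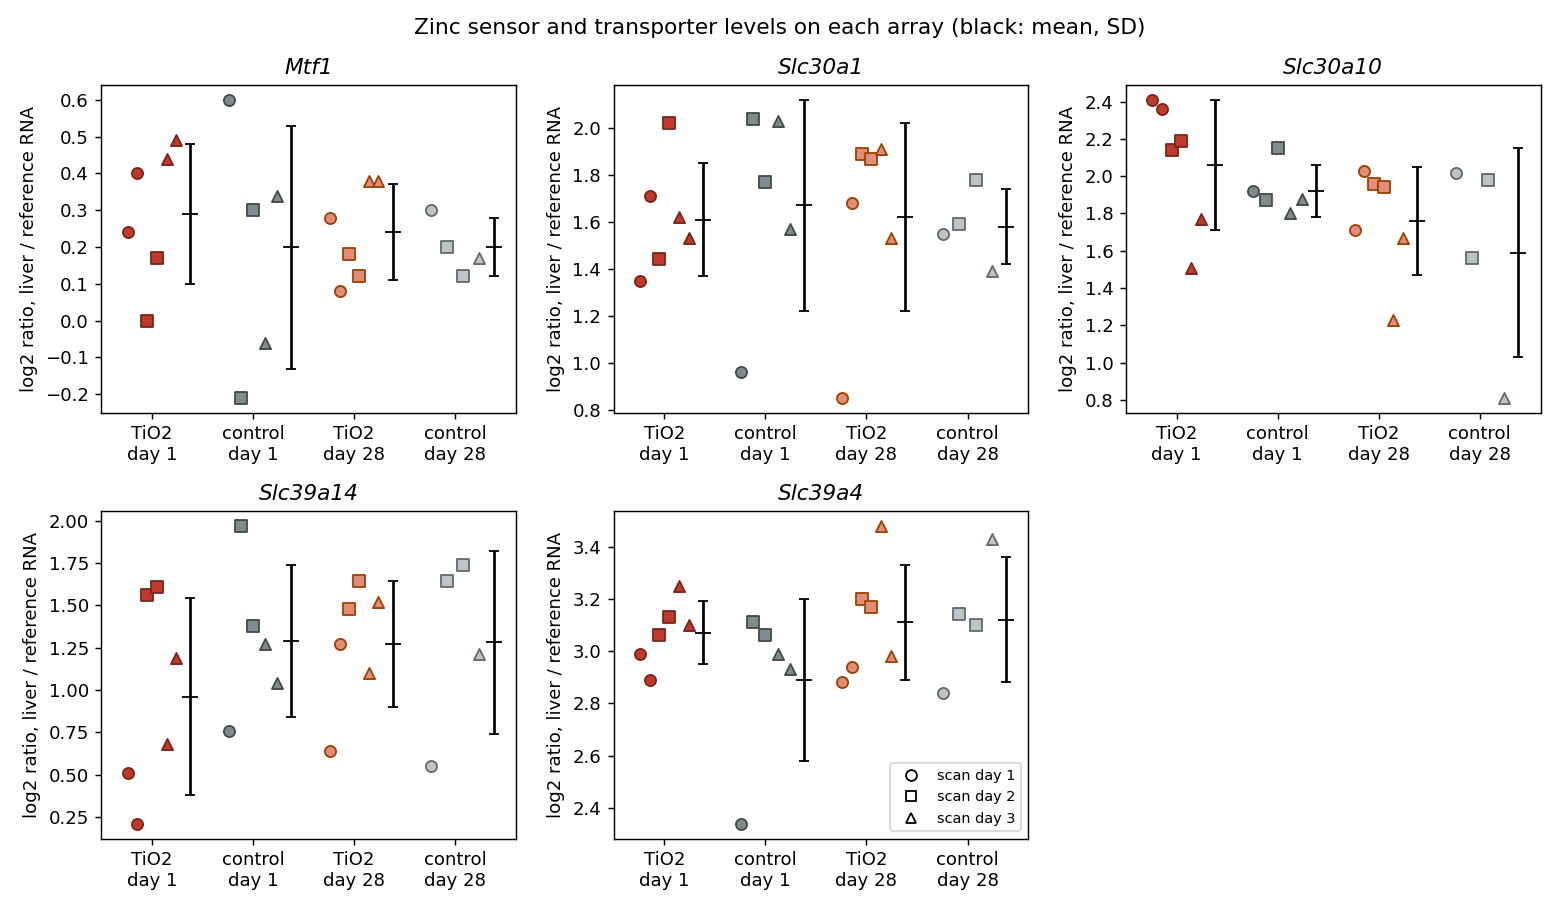
Log2 ratio of liver over reference RNA for Mtf1, Slc30a1, Slc30a10, Slc39a14 and Slc39a4 on each of the 21 arrays, by group, with the symbol giving the scan day and the black bar the group mean and SD. For Slc39a14 the scan day means are 0.66, 1.63 and 1.15, and for Slc39a4 control day 1 replicate 1 lies at 2.34, below every other array.

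Across the 21 arrays, the sensor and the transporters were compared with the metallothioneins. After each scan day's mean was removed, the Pearson r with the mean of Mt1 and Mt2 was 0.31 for Slc30a1, 0.05 for Slc30a10, 0.03 for Slc39a14, 0.01 for Slc39a4 and -0.23 for Mtf1. Without control day 1 replicate 3 and control day 28 replicate 4 they were 0.40, 0.35, -0.08, -0.11 and -0.11 in the same order. Over 17468 features the values from all 21 arrays ranked Slc30a1 2008th and Mtf1 14521st. The named genes most like the metallothionein mean were Ccdc28a (r of 0.80), Zbtb48 (0.78), Pwwp3a (0.77), Psme3 (0.76), Zmynd8 (0.73) and Zfp975 (0.73). Those most opposite were Ltb4r1 (-0.83), Armc1 (-0.80) and Gtf2e1 (-0.79). All are picks from the ends of a long list, given as a description over 21 arrays, and with the scan day means kept in r was 0.52 for Psme3 and -0.57 for Ltb4r1.

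The other genes of zinc handling showed no group effect that passed a test. Of 22 listed, which are further metallothioneins and the Slc30a and Slc39a transporters, 20 were on the array and 14 were tested. In TiO2 against control mice, 0 of 14 passed an adjusted or unadjusted p of 0.05 by limma at either time. Over all features 0% passed the adjusted threshold, and 1.73% at day 1 and 0.913% at day 28 the unadjusted one. A count of 0 among 14 is near those shares. The median difference of the 14 was 0.04 at day 1 and 0.03 at day 28, against -0.01 and 0.00 over all features. At day 1 the largest were Slc39a1, a zinc importer of the plasma membrane, at 0.24 ± 0.13 (SE), and Slc39a7, which releases zinc from the endoplasmic reticulum, at 0.18 ± 0.21. At day 28 they were Slc39a2, another importer, at -0.20 ± 0.15 and Slc30a7, which carries zinc into the Golgi, at -0.19 ± 0.11.

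Copper genes, which handle the other metal bound by metallothioneins, were likewise without a call. Of 12 listed, 11 were tested, and 0 passed an adjusted or unadjusted p of 0.05 by limma in either TiO2 against control comparison. This too is near the shares of all features, 0% adjusted at both times and 1.73% (day 1) and 0.913% (day 28) unadjusted. The median difference of the 11 was -0.11 at day 1 and 0.01 at day 28. At day 1 the largest were the copper chaperone Atox1 at -0.34 ± 0.33 (SE) and Commd1, a regulator of copper export, at -0.21 ± 0.18. At day 28 they were Atox1 at 0.28 ± 0.35 and Ccs, the copper chaperone of superoxide dismutase, at 0.15 ± 0.27 over the 20 arrays that gave it a value.

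Acute phase and glucocorticoid responsive genes, which are known to rise with the metallothioneins in liver, were set beside them. Among 12 acute phase genes, 4 had a higher level in TiO2 mice at day 1 at an unadjusted limma p under 0.05, against 0.992% of all features, and the median difference was 0.36. Saa3, a serum amyloid gene, had the largest at 2.41 ± 0.50 (SE, adjusted p of 0.7527 by limma). Among 11 glucocorticoid responsive genes, 3 did so, with a median of 0.39: Lcn2, a secreted iron-siderophore binder, at 1.48 ± 0.27, Errfi1, an inhibitor of the epidermal growth factor receptor, at 0.99 ± 0.39, and the kinase Sgk1 at 0.59 ± 0.26. In none of these did the adjusted p pass, and the lowest, 0.286, was that of Lcn2. The counts, median and list means of the 11 include Lcn2, which had the largest difference. Of the same list, Fkbp5 was at 0.50 ± 0.50, Tsc22d3 at 0.19 ± 0.29, Per1 at 0.18 ± 0.26 and Tat at -0.21 ± 0.34. These did not pass the unadjusted threshold. Over the list, 10 differences were positive and 1 was negative. For Errfi1 and Sgk1 the day 1 controls had the lowest mean of the 4 groups. Among control mice, day 28 minus day 1 was 1.19 ± 0.43 for Errfi1 and 0.55 ± 0.29 for Sgk1 (SE), and neither passed the adjusted threshold. In TiO2 mice at day 28 against TiO2 mice at day 1, Lcn2 fell by 1.77 ± 0.25 on the log2 scale (adjusted p of 0.006165 by limma). In control mice its difference over the same time was -0.66 ± 0.29 and did not pass. Of the 11 glucocorticoid responsive genes, 7 had a higher mean in TiO2 mice at day 28 than at day 1, with a median difference of 0.08, and 0 were higher and 2 lower at an unadjusted p under 0.05. Of the 12 acute phase genes 5 were lower at that p, against 1.62% of all features.

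The mean log2 ratio of the acute phase genes was 2.85 to 4.21 in TiO2 mice and 2.66 to 3.24 in control mice at day 1, and 2.70 to 3.30 in TiO2 mice and 2.75 to 3.02 in control mice at day 28. The glucocorticoid responsive genes averaged 0.58 to 1.19 in TiO2 mice and 0.10 to 0.90 in control mice at day 1, and 0.16 to 0.93 in TiO2 mice and 0.27 to 1.01 in control mice at day 28. On control day 1 replicate 2, the array highest in metallothionein, these means were 3.23 and 0.36. On control day 1 replicate 3, the lowest, they were 2.97 and 0.24. Among the next highest, TiO2 day 1 replicate 2 had the lowest acute phase mean of its group, 2.85, and a glucocorticoid mean of 0.64. TiO2 day 1 replicate 6 had the highest acute phase mean of the 21 arrays, 4.21, and replicate 4 the highest glucocorticoid mean, 1.19. These means were not adjusted for scan day, and replicates 2, 4 and 6 of TiO2 day 1 were read on scan days 1, 2 and 3. The acute phase mean of TiO2 day 1 replicate 1, also of scan day 1, was 3.59. The part of either gene list in the metallothionein values was not tested.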

How the data were processed

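Liver RNA was hybridised against a common reference on 2-colour Agilent arrays, 250 ng per sample and with RNA integrity of at least 7, per the labels. The deposited spot values are intensity, the median pixel brightness of a spot and of its background, not normalized per the file headers. The deposited LogRatio is a log10 ratio of red over green from the scanner software, per the file headers (version 10.7.3.1; the submitters' processing notes name 9.5.3.1). The authors' deposited value table holds log2 values of unstated scale, centring and direction; its columns had medians of -0.058 to -0.011 and correlated at 0.9957 to 0.9971 with log2 ratios of red over green made here without background subtraction. The design text names 22 arrays, and 21 were analysed here.

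Groups came from the treatment and time labels; the labels call the samples biological replicates. Replicate numbers follow the order of deposition. Background was corrected in limma 3.58.1 (R 4.3.3) by normexp with an offset of 50 on median signals, the mean spot signal not being among the columns, followed by loess within arrays with control spots at weight 0. The 103 to 502 spots per array that the software marked as deviant were given the median background of the other spots, since the fit on all spots failed on 3 arrays. Marked spots were then left out (5 of the 210 Mt1 spots), and spots of a probe were averaged. A probe was kept if, in 1 or more groups, the liver channel was well above background on 50% or more of the arrays. Symbols came from RefSeq accessions (GRCm38.p6), and the probe with the highest mean liver signal represented a gene. One limma model of the 4 group means over 21 arrays, with empirical Bayes moderation, gave each difference, and p-values were adjusted by Benjamini-Hochberg over 17640 features at 0.05. The script was tested on simulated data. The number of arrays limits the precision, and slides and scan days were tried as blocks.

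The 7 genes and all lists were chosen with earlier results of these data known. Named are the 7 genes, and in the zinc and copper lists the largest 2 differences per TiO2 comparison and any gene at an unadjusted p under 0.05. The acute phase and glucocorticoid lists are given as means on the extreme arrays. From them Saa3, Lcn2, Errfi1, Sgk1, Fkbp5, Tsc22d3, Per1 and Tat were named after their values were seen. Also named are the 6 genes most like and 3 most opposite to the metallothionein mean.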

Additional observations from a re-analysis of the deposited data

Results flagged for a closer look

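Of 28 groups examined, 1 for each gene and group, 2 had an array whose gap to its nearest neighbour took more of the group's range than Dixon's 95% critical value, and chance alone gives about 1 in 20. In the TiO2 day 28 group, replicate 1 had a Slc30a1 log2 ratio of 0.85, with a gap of 0.642 of the range. In the control day 1 group, replicate 1 had a Slc39a4 log2 ratio of 2.34, with a gap of 0.762 of the range. The same control array was the lowest of its group for Slc30a1 (0.96) and Slc39a14 (0.76) and the highest for Mtf1 (0.60). The day 1 differences without it were 0.05 for Slc39a4, -0.24 for Slc30a1, -0.46 for Slc39a14 and 0.20 for Mtf1. Both arrays belong to scan day 1, whose arrays also had the widest spread between spots of Mt1.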

How the results depend on the processing

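No paired analysis was possible because the replicate numbers only follow the order of deposition and pair no animals. Fits within slides are those with slide as a block. For Mt1 and Mt2, the differences between TiO2 and control mice at day 1 and at day 28 kept their sign under every alternative fit. So did the change between these and the difference between TiO2 mice at day 28 and day 1. None passed the adjusted threshold. Differences within single scan days, given above, are not among these fits, and for Mt1 some had the other sign. The next ranges are over alternatives that kept all arrays or left out a whole scan day. Mt1 ranged from 0.32 to 0.75 at day 1. At day 28 it ranged from -1.19 (without scan day 2) to -0.12 (without scan day 3). Mt2 ranged from 0.49 to 0.69 and from -1.12 to -0.55. The TiO2 difference over time ranged from -1.29 to -1.02 for Mt1 (smallest adjusted p of 0.2403 by limma) and from -1.65 to -1.22 for Mt2. With 1 array left out at a time, it ranged from -1.31 to -1.03 for Mt1 and from -1.76 to -1.18 for Mt2, and the change between the TiO2 effects from -1.30 to -0.66 and from -1.87 to -0.96. Over the alternatives that kept all arrays or left out a whole scan day, that change ranged from -1.51 to -0.50 for Mt1. For Mt2 it ranged from -1.70 to -1.24. Without both control day 1 replicate 3 and control day 28 replicate 4 the change was smaller than in these ranges, as given earlier. Some alternatives brought an unadjusted limma p under 0.05: for Slc39a4 at day 1 0.02724 with scan day as a block, 0.03427 with slide random, 0.02879 with slide fixed and 0.04235 in the liver channel alone, and for Mt1 0.02996 at day 1 with array weights and 0.01336 at day 28 without scan day 2. For the change between the TiO2 effects, the smallest unadjusted limma p of Mt1 over the alternatives with these ranges was 0.01747. The adjusted p-values of all these were 0.9427 or more.

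The time difference of the controls, near 0, changed sign often. With 1 array left out it ranged from -0.49 to 0.15 for Mt1 and from -0.45 to 0.46 for Mt2. Mt1 was 0.03 with slide as a fixed block, 0.25 without scan day 2 and -0.75 without control day 1 replicate 3 and control day 28 replicate 4. Mt2 was -0.17 with the scanner's LogRatio, -0.05 with slide as a random block, -0.13 with slide fixed, -0.07 with array weights, -0.10 without scan day 1, -0.13 without scan day 3 and -0.85 without those 2 control arrays.

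Small differences of the other genes also turned. At day 1, Mtf1 was -0.08 with LogRatio and -0.03 without scan day 3, Slc30a1 0.03 without scan day 2 and 0.04 without scan day 3, Slc30a10 -0.13 with LogRatio, -0.02 without scan day 1 and -0.07 by its second probe, and Slc39a14 0.11 by its second probe. At day 28, Mtf1 was -0.04 with no background subtraction, -0.09 with LogRatio, -0.05 in the authors' table and -0.04 without scan day 3. Slc30a1 was -0.03 with LogRatio, 0.00 in the authors' table, -0.03 in the liver channel alone, -0.07 without scan day 3 and -0.02 without the 2 control arrays named above. Slc30a10 was -0.09 without those 2. Slc39a14 was 0.02 with a normexp offset of 10, 0.02 with scaling between arrays, 0.11 with scan day as a block and 0.25 without scan day 2. Slc39a4 was 0.02 with scaling, 0.07 in the liver channel, 0.01 with scan day as a block, 0.02 with slide random, 0.06 with slide fixed, 0.03 without scan day 3 and 0.09 without those 2 arrays.
With 1 array left out, the ranges at day 1 were 0.18 to 0.68 for Mt1, 0.14 to 1.05 for Mt2, 0.00 to 0.20 for Mtf1, -0.24 to 0.03 for Slc30a1, 0.07 to 0.25 for Slc30a10, -0.46 to -0.15 for Slc39a14 and 0.05 to 0.24 for Slc39a4. At day 28 they were -0.83 to -0.22 for Mt1, -1.20 to -0.43 for Mt2, 0.01 to 0.08 for Mtf1, -0.02 to 0.20 for Slc30a1, -0.09 to 0.31 for Slc30a10, -0.25 to 0.14 for Slc39a14 and -0.11 to 0.09 for Slc39a4.

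Features passing the adjusted threshold between TiO2 mice at day 28 and day 1, 6 as reported, numbered 3 with an offset of 10, 1 with LogRatio, 2 with scaling, 19 with scan day as a block, 31 with slide random, 14 with slide fixed or with array weights, 1 without scan day 1, 0 without scan day 2, 0 without scan day 3 and 5 to 9 with 1 array left out. Between TiO2 and control mice at day 1 they numbered 3 with slide random, 1 with array weights and 0 to 3 with 1 array left out, and between controls over time 4 with array weights and 0 to 1 with 1 array left out. The causes were not tested. Mt2 rests on 1 spot per array.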
